A study of Mus musculus with 12 samples.

Results

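Terminal poly(A) sites with the main variant signal are the subject here: clusters of mRNA 3' ends listed with the hexamer ATTAAA at 15 to 30 nt, behind which no other cluster lay on the same strand for the next 2000 nt in the direction of transcription. The members were chosen by listed hexamer, hexamer distance and downstream neighbour, with the mitochondrial genome left out. This rule gave 9759 members among the 145179 clusters of the catalogue, or 6.73% of the 145099 nuclear clusters. A member may lie alone or at the downstream end of a tandem series of sites.

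The catalogue came from mouse embryonic stem cells profiled by 2P-seq, which reads into poly(A) RNA from its tail and so marks where transcripts end. Every library carried a conditional knockout (CKO) of Exosc3, which encodes a subunit of the RNA exosome, in clones made from V6.5 cells and maintained in doxycycline at 0.1 μg/ml. The labels call cells with doxycycline Exosc3+ and cells without it Exosc3-, and do not say which clone gave which library. The study had 12 libraries in 6 groups of 2. One pair of groups was kept with or removed from doxycycline for 3 days. The other groups were with or without doxycycline for 2 days and were nucleofected with 15 μM of a morpholino (AMO) against U1 snRNA or of a scrambled (Scr) one, with RNA taken 8 hours later. None of the 7 columns of the catalogue held a value of a library (0 of 7), so the level of a member in any group, the depth behind it, the effect of Exosc3 loss or of U1 inhibition, and the markers of the labelled cell type were not analysed here.

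Cleavage and polyadenylation is directed mainly by a hexamer a short way upstream of the cut, which the cleavage and polyadenylation specificity factor binds through its WDR33 and CPSF30 subunits. ATTAAA is the most common natural variant of the canonical AATAAA and is processed less efficiently in textbook assays. Genes with several sites in tandem often carry their strongest signal at the last one, and the choice among them sets the length of the 3' untranslated region. The signals are written below 5' to 3' in the DNA letters of the catalogue, with capitals at base 2, where they differ.

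Main variant signal: aTtaaa

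Canonical signal: aAtaaa

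No genome of the build of the catalogue, mm9, was at hand, so no sequence around a member is shown and no member is assigned to a gene.

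The members were found on both strands and all autosomes. The plus strand held 4929 of them and the minus strand 4830. Of them 9495 lay on autosomes, 249 on X, 4 on Y and 11 on unplaced sequences. Only 3 had no further cluster on their strand before the sequence ended. They made up 6.75% of an autosome's clusters on average (± 0.355, SD, n = 19 autosomes). The members are not replicates of a condition, and no library stands behind a p-value below. The 2-sided permutation test used flips the signs of the differences on the 19 autosomes, and measures how evenly a difference held over the genome and not how it would repeat in other cultures. The adjusted p-values are Benjamini-Hochberg values over 13 comparisons. Of these, 3 are of measures the rule used and are given without p, as is the upstream-site share of members against upstream ATTAAA sites. The smallest adjusted p obtained, 2.6e-05, belongs to the smallest p the resampling can give, 1e-05.

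The variant signal was terminal less often than the canonical one. Of the 18655 clusters with ATTAAA at 15 to 30 nt, 52.3% were terminal (95% Wilson interval 51.6 to 53.0%), and the other 8896, called upstream sites here, had a further site within 2000 nt. Of the 51959 clusters with AATAAA at the same distances, 33110 were terminal, which was 63.7% (interval 63.3 to 64.1%). Over autosomes the terminal share was 52.2% ± 2.08 for the variant and 63.6% ± 1.86 for the canonical signal (SD, n = 19). The difference was -11.5 percentage points ± 2.11 and was negative on 19 of 19 autosomes. Signal, distance and downstream gap are what the rule used, so this is a description and no p is given for it.

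Among the hexamers with at least 500 sites at 15 to 30 nt, 13 in number, ATTAAA stood between AATAAA and all the others. The other 11 had terminal shares between 26.8% and 45.8%. AGTAAA, with G at base 2, reached 42.0% (interval 40.4 to 43.5%). TATAAA, the next most frequent signal, reached 36.0% (interval 34.5 to 37.5%). The highest of the 11 was the A-rich TAAAAA with 45.8% (interval 42.1 to 49.6%), and the lowest was AATAGA with 26.8% (interval 23.2 to 30.6%). Just under the limit, with 492 sites, AAAAAA had 46.7% (interval 42.4 to 51.2%) and a mean of 51.2% ± 17.0 (SD) over autosomes. These shares were compared by their intervals only. No source used here gives the order of the hexamer search, so a cluster listed with one signal may also hold another.

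At the edges of the rule the counts changed gradually. Terminal ATTAAA clusters numbered 62 at 14 nt and 80 at 15 nt, and 104 at 30 nt against 87 at 31 nt. The next site downstream lay at 1801 to 2000 nt for 303 ATTAAA clusters outside the rule and at 2001 to 2200 nt for 274 members. Both of these sets had a median width of 8 nt, and 52.1% and 55.5% of them had a site upstream within 2000 nt.

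Within 15 to 30 nt the signal of the members lay at a median of 21 nt (quartiles 19 and 24 nt). The mean distance over autosomes was 21.6 nt ± 0.115 for members and 21.4 nt ± 0.067 for terminal AATAAA sites (SD, n = 19), a difference of 0.163 nt ± 0.128. The rule bounds this distance, so no p is given, and the difference was -0.0759 nt when only distances of 18 to 25 nt were taken and 0.876 nt at 10 to 35 nt. Upstream ATTAAA sites had a mean of 21.7 nt ± 0.166. Canonical sites were more frequent at the near edge, with 2.72% of them at 15 nt against 0.820% of members.

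The profile of distances was not smooth. The members had their highest count at 19 nt, with 1593 clusters (16.3% of all members) against 789 at 18 nt and 1084 at 20 nt. This count was 1.70 times the mean of its 2 neighbours and exceeded that mean on 19 of 19 autosomes. The same ratio was 1.56 for upstream ATTAAA sites (18 of 19 autosomes) and 1.24 for terminal AATAAA sites (19 of 19 autosomes). A low maximum stood at 21 nt (1200 members, 1.10 times the mean of the neighbours) and a clearer one at 26 nt, with 611 members against 550 at 25 nt and 279 at 27 nt, or 1.47 times the mean of the neighbours, again above that mean on 19 of 19 autosomes. At 26 nt terminal AATAAA sites showed no such maximum (1376 clusters, 0.928 times the mean of the neighbours, above it on 5 of 19 autosomes). Upstream ATTAAA sites were between them, with a ratio of 1.16 and 13 of 19 autosomes.

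**Figure D1:**
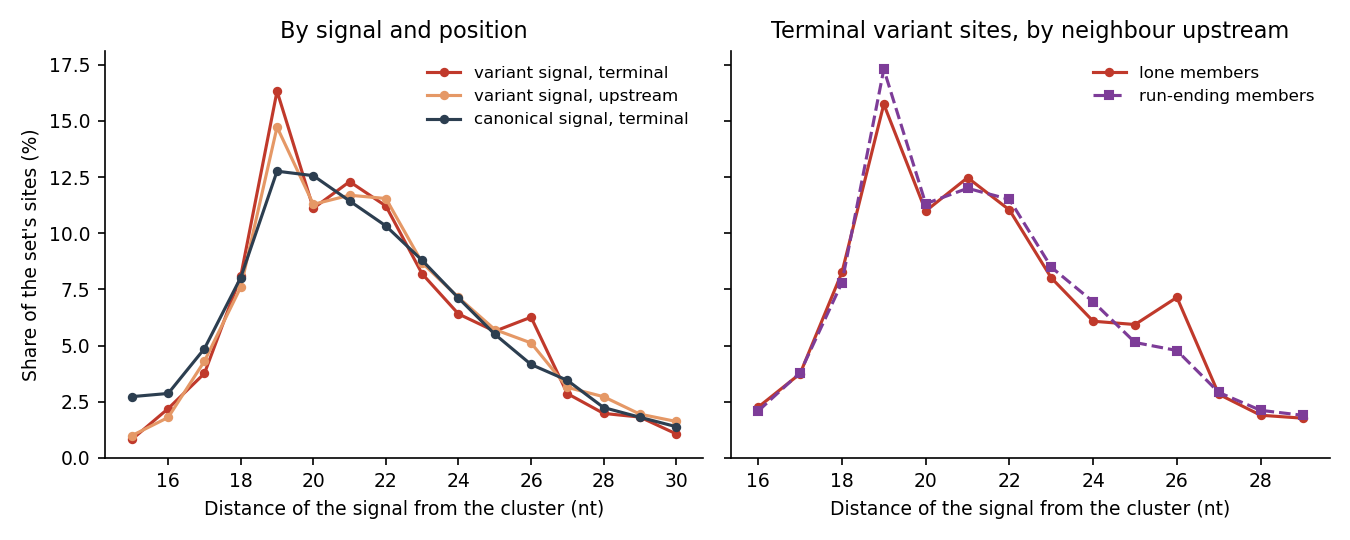
Share of sites (%) at each distance in nt between the signal and the cluster, on the left for terminal and upstream sites with the variant signal and terminal sites with the canonical signal, and on the right for members without (lone) and with (run-ending) a site upstream within 2000 nt. The members peak at 19 nt with 16.3% and have lower maxima at 21 and 26 nt, of which the one at 26 nt is higher among lone than among run-ending members.

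The maximum at 26 nt was higher among lone members, while that at 19 nt was present in both classes. At 26 nt the ratio was 1.63 among lone members (437 clusters, above the mean of the neighbours on 18 of 19 autosomes) and 1.19 among members that end a run (174 clusters, 11 of 19 autosomes). At 19 nt it was 1.64 among lone and 1.81 among run-ending members. Upstream ATTAAA sites had the same order at 26 nt, with 1.32 where no site lay upstream within 2000 nt and 1.06 where one did. Members at 26 nt were lone in 71.5% of cases (interval 67.8 to 74.96%). At 25 or 27 nt the lone share was 64.7% (interval 61.3 to 67.8%), and these 2 intervals overlap slightly. Their nearest neighbour on the strand lay at a median of 6750 nt, against 3402 nt for members at 25 or 27 nt. They had a median of 21 other clusters of either strand within 100 kb, against 26. Members at 19 nt went the other way, with a median of 32 clusters within 100 kb against 28 at 18 or 20 nt, while the intervals of their lone shares overlapped, at 60.5% (interval 58.0 to 62.8%) and 62.8% (interval 60.6 to 65.0%). Among terminal AATAAA sites those at 19 nt were lone more often, in 68.4% (interval 66.9 to 69.7%), and those at 18 or 20 nt in 64.8% (interval 63.7 to 66.0%). The distances of 19 and 26 nt were picked because of their counts, so these values are given without a test. The maxima at 19 and 26 nt were present on either strand, with ratios of 1.71 and 1.70 at 19 nt and of 1.47 and 1.48 at 26 nt for the plus and the minus strand.

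Clusters of the members were narrow. They had a median of 7 nt in width (quartiles 2 and 12 nt), against 8 nt for terminal AATAAA sites (quartiles 3 and 16 nt) and 11 nt for upstream ATTAAA sites (quartiles 5 and 23 nt). The mean log2 width of members was 2.54 ± 0.057 over autosomes, that of terminal AATAAA sites 2.82 ± 0.080 and that of upstream ATTAAA sites 3.34 ± 0.086 (SD, n = 19). Members were thus narrower, with a log2 difference of -0.28 ± 0.064 from terminal AATAAA sites and of -0.80 ± 0.091 from upstream ATTAAA sites, each on 19 of 19 autosomes (permutation test, adjusted p = 2.6e-05 for both). The gap between terminal and upstream sites was not particular to the variant. It was -0.82 ± 0.068 for AATAAA, and the 2 gaps differed by 0.018 ± 0.12 (adjusted p = 0.601, permutation test over autosomes, adjusted over 7 comparisons added after the catalogue had been seen). Members and upstream ATTAAA sites were split by the downstream gap, and had medians of 28 and 36 other clusters of either strand within 100 kb. The part of this density in the width difference of -0.80 was not tested. The number of reads behind each cluster is unknown, so its part in the width was not tested.

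The ends of the width range showed the same order. A single nt was covered by 1361 members, or 13.9% (interval 13.3 to 14.6%), against 11.8% of terminal AATAAA sites (interval 11.5 to 12.2%) and 7.77% of upstream ATTAAA sites (interval 7.23 to 8.34%). The difference from terminal AATAAA sites was 2.09 percentage points ± 2.07, positive on 18 of 19 autosomes (adjusted p = 0.000942, permutation test). From upstream to terminal sites, the step in this share differed between the signals by 0.414 percentage points ± 2.67, which did not pass (adjusted p = 0.601, permutation test, added comparison). Widths above 20 nt were found in 12.0% of members (interval 11.4 to 12.7%) and 17.5% of terminal AATAAA sites (interval 17.1 to 17.96%). The variant made up 25.8% of the clusters of 1 nt that were terminal and had either signal (interval 24.6 to 27%). It made up 17.0% of those 21 to 50 nt wide (interval 16.1 to 17.96%) and 15.3% of those above 50 nt (interval 12.9 to 18.02%). Members without a site upstream were narrower than those with one, at medians of 6 and 9 nt, and 16.3% and 9.94% of them were 1 nt wide.

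**Figure D2:**
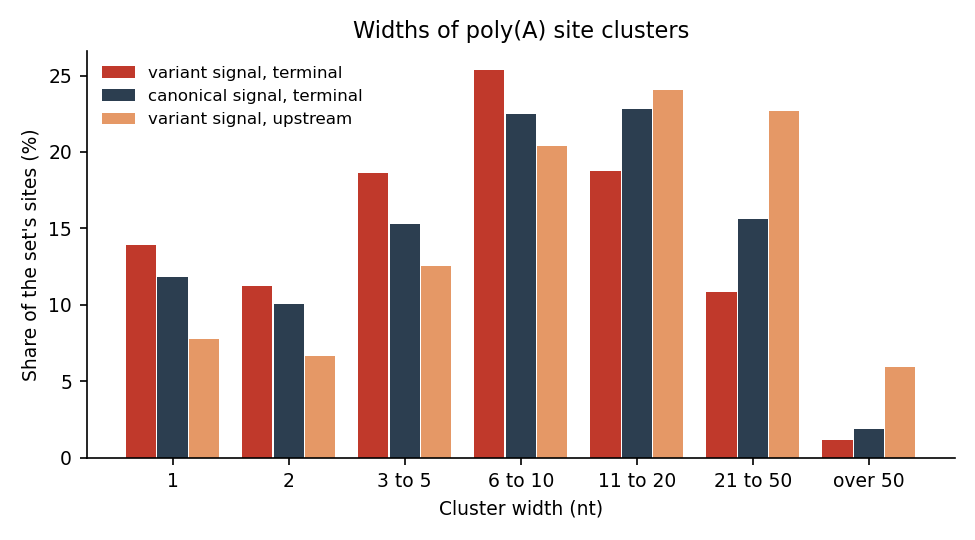
Share of sites (%) by cluster width in nt for terminal sites with the variant signal, terminal sites with the canonical signal and upstream sites with the variant signal. Terminal variant sites are the most frequent of the 3 sets in every class up to 10 nt and the least frequent above it, with 13.9% of them 1 nt wide.

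The upstream side of the members was not used to choose them. A site on the same strand within 2000 nt upstream was present for 3642 members, 37.3% (interval 36.4 to 38.3%), and the other 6117 stood alone. Terminal AATAAA sites had such a neighbour in 34.6% of cases (interval 34.1 to 35.2%). Over autosomes the share of members was higher by 2.58 percentage points ± 2.81 and higher on 15 of 19 (adjusted p = 0.00152, permutation test). It was 4.32 percentage points with signals at 10 to 35 nt and 1.55 with neighbours up to 500 nt. Members also lay among more clusters of either strand than terminal AATAAA sites, with medians of 28 and 26 within 100 kb. The part of this density in the difference of 2.58 was not tested. Upstream ATTAAA sites had a further site upstream in 62.1% of cases (interval 61.1 to 63.1%), a difference of -24.8 percentage points ± 3.13 with that sign on 19 of 19 autosomes. The same step was seen for AATAAA, at -25.1 percentage points ± 2.14, and the 2 steps differed by 0.283 ± 3.47 (adjusted p = 0.726, permutation test). Members and upstream ATTAAA sites were split by the downstream gap, which also sorts sites by local density. They had medians of 28 and 36 other clusters of either strand within 100 kb. No p is therefore given for the step of -24.8, and the part of density in it was not tested.

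The nearest site upstream of a run-ending member lay at a median of 515 nt (quartiles 194.5 and 1085 nt). It was within 100 nt for 13.3% of them (interval 12.3 to 14.5%), at 101 to 1000 nt for 58.9% and at 1001 to 2000 nt for 27.8%. For terminal AATAAA sites the median was 544 nt and the shares were 15.7% (interval 15.0 to 16.4%), 55.1% and 29.2%. The mean log2 gap differed by 0.038 ± 0.15 over autosomes (11 of 19 positive), which did not pass the test (adjusted p = 0.279, permutation test). With only neighbours up to 500 nt it was 0.15 and passed (adjusted p = 0.00137, permutation test).

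The neighbour upstream of a member carried the canonical signal less often than the neighbour upstream of a terminal AATAAA site. AATAAA was listed for 1444 of the 3642 nearest upstream sites of members, or 39.6% (interval 38.1 to 41.2%), and for 45.8% of those of terminal AATAAA sites (interval 44.9 to 46.8%). Over autosomes the shares were 39.9% ± 4.99 and 45.8% ± 2.18, a difference of -5.85 percentage points ± 4.84 that was negative on 17 of 19 (adjusted p = 0.000371, permutation test). With neighbours up to 500 nt the difference was -9.63 percentage points. A close neighbour may be listed with the same copy of the hexamer as the site itself, which would raise the AATAAA share beside AATAAA sites. The nearest upstream site lay within 100 nt for 13.3% of run-ending members and 15.7% of such terminal AATAAA sites. The part of shared copies in the difference was not tested. ATTAAA itself was listed for 19.9% of the neighbours of members (interval 18.7 to 21.3%) and 18.1% of those of terminal AATAAA sites (interval 17.4 to 18.8%). The remaining hexamers made up 31.4% (interval 29.9 to 32.9%) and 27.7% (interval 26.9 to 28.5%). Among these were TATAAA with 5.68% and AGTAAA with 3.68% of the neighbours of members. Any hexamer was listed for 91.3% ± 2.00 and 91.8% ± 2.07 of the neighbours over autosomes, a difference of -0.536 percentage points ± 2.05 that did not pass the test (adjusted p = 0.279, permutation test). Upstream ATTAAA sites had an AATAAA neighbour next upstream in 28.03% of cases (interval 26.9 to 29.2%), against 34.5% for upstream AATAAA sites (interval 33.6 to 35.4%). The lower share beside the variant was thus not particular to terminal sites. Whether its size differed between terminal and upstream sites was not tested.

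**Figure D3:**
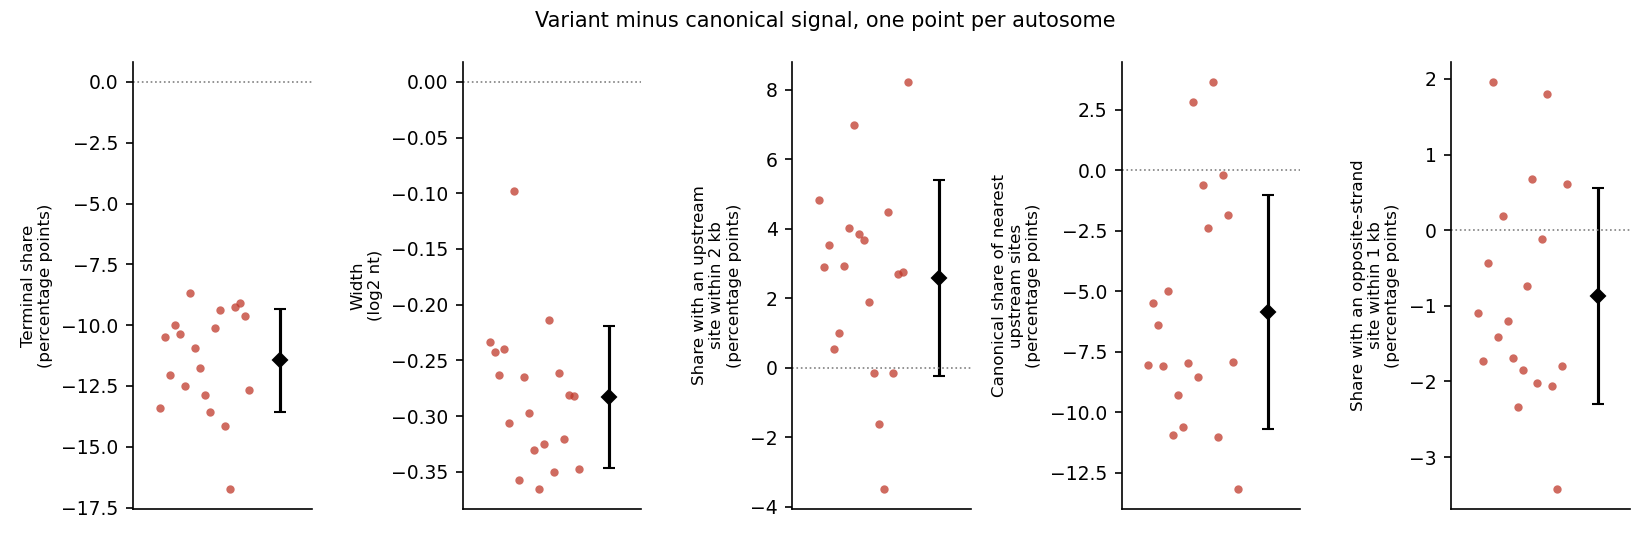
Differences between the variant and the canonical signal on each of the 19 autosomes (points) with their mean and SD (diamond and bar), for the terminal share, the log2 width in nt, the share with an upstream site within 2 kb, the AATAAA share of the nearest upstream sites and the share with an opposite-strand site within 1 kb. The first panel compares all sites at 15 to 30 nt and the others terminal sites. In the panels of terminal share and width all 19 points lie below 0, while in the panel of opposite-strand sites 5 lie above it.

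When sites were joined into runs with gaps of at most 2 kb, members ended 3642 of the 25530 runs of 2 or more sites, or 14.3%. Terminal AATAAA sites ended 11471, or 44.9%. Among the 72908 terminal clusters of any kind, 9759 (13.4%) were members and 33110 were terminal AATAAA sites. The share of runs ended by members was thus near their share of all terminal clusters. A run ended by a member held a median of 2 sites upstream of it and up to 55. In 1638 runs (45.0%) there was a single one and in 633 (17.4%) there were 5 or more. At least one AATAAA site at 15 to 30 nt was present upstream of the terminal variant site in 1861 of the runs, 51.1% (interval 49.5 to 52.7%). Of runs ended by a terminal AATAAA site 54.4% held one (interval 53.5 to 55.3%). From the first site to the member such runs spanned a median of 1176.5 nt. A run is defined by spacing and may join sites of different genes.

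The longest of these runs ended on the minus strand of chromosome 1 at chr1:180251226-180251258 (mm9), in a cluster 33 nt wide with its signal at 26 nt, and held 55 sites upstream over 16228 nt. The next were at chr7:118214069-118214119 on the minus strand, with 34 sites upstream over 9732 nt, and at chr6:67241111-67241119 on the plus strand, with 33 over 7163 nt. In these 3 the next site downstream lay 2893, 2214 and 2166 nt away, and the limit of the rule is 2000 nt. The widest member, on the minus strand at chr9:107191174-107191420, was 247 nt wide and stood alone, with its nearest site upstream 37991 nt away. The second widest, at chr1:162968555-162968687 on the plus strand, was 133 nt wide and ended a run with 16 sites upstream, the nearest after 27 nt. The third, at chr1:173059278-173059408 on the minus strand, was 131 nt wide and lone. The most isolated member, at chr16:80355281-80355290 on the minus strand, had no site on its strand for 1108541 nt upstream and 1378005 nt downstream, and its signal lay at 26 nt. After it came chr9:33537672-33537673 on the plus strand, with its signal at 18 nt, and chr2:107797321-107797322 on the minus strand, with its signal at 26 nt. Which genes lie at these positions was not analysed here.

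Beyond the 2000 nt that the rule requires, the next site downstream of a member lay at a median of 13073 nt (quartiles 5034 and 43251 nt), against 17545 nt (quartiles 6162 and 57300 nt) for terminal AATAAA sites. It fell at 2001 to 5000 nt for 24.8% of members (interval 24.0 to 25.7%) and 20.2% of terminal AATAAA sites (interval 19.8 to 20.6%). For those members the next site was listed with AATAAA in 49.3% of cases (interval 47.3 to 51.3%) and with ATTAAA in 18.3% (interval 16.8 to 19.9%). The rule used this gap, so these values are a description only.

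Sites on the opposite strand were found near a minority of the members. A cluster of the other strand lay within 1 kb on either side, or overlapped, for 1032 members, 10.6% (interval 9.98 to 11.2%). The share was 11.4% for terminal AATAAA sites (interval 11.05 to 11.7%) and 14.5% for upstream ATTAAA sites (interval 13.8 to 15.2%). Over autosomes members less upstream ATTAAA sites gave -3.90 percentage points ± 2.14, negative on 19 of 19 (adjusted p = 2.6e-05, permutation test). Among sites with at least one upstream within 2000 nt the difference was -1.83 (adjusted p = 0.0434, permutation test). The step of -3.90 did not differ detectably from that of AATAAA, -4.33 ± 1.62 (difference 0.430 ± 1.81, adjusted p = 0.550, permutation test). Members lay among fewer clusters of either strand than upstream ATTAAA sites, with medians of 28 and 36 within 100 kb. The part of this density in the step was not tested. Against terminal AATAAA sites the difference was -0.877 percentage points ± 1.43, negative on 14 of 19 (adjusted p = 0.0199, permutation test), and it was lost under 7 of 16 alternatives, among them the plus strand alone (-0.227 percentage points, adjusted p = 0.688, permutation test), while on the minus strand it was -1.51. A direct overlap was rarer. An opposite-strand cluster overlapped 88 members, 0.902% (interval 0.733 to 1.11%), against 1.59% of terminal AATAAA sites (interval 1.46 to 1.73%), a difference of -0.687 percentage points ± 0.509 over autosomes that was negative on 17 of 19 (adjusted p = 0.00014 over the 7 added comparisons, permutation test). Wider clusters have more room to overlap, and members were narrower, as given above, and the part of width in this difference was not tested. Among upstream sites the order was the same, with 1.64% for ATTAAA (interval 1.40 to 1.93%) and 2.22% for AATAAA (interval 2.02 to 2.44%). The lower overlap of the variant was thus not particular to terminal sites.

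Opposite-strand ends were not placed evenly about the members or about terminal AATAAA sites. At gaps up to 50 nt they lay upstream of 104 members, on the side from which the transcript comes, and downstream of 54. For terminal AATAAA sites these counts were 340 and 197. At 201 to 500 nt they lay downstream of 216 members and upstream of 133, and for terminal AATAAA sites of 690 and 468. The downstream side was still the more frequent at 501 to 1000 nt, with 263 members against 217 upstream. Beyond 1000 nt the upstream side was again the more frequent. It had 513 members against 368 downstream at 1001 to 2000 nt and 1073 against 872 at 2001 to 5000 nt. Downstream at 51 to 200 nt they were present for 1.10% of members (interval 0.908 to 1.32%), against 1.59% of terminal AATAAA sites (interval 1.46 to 1.73%) and 2.10% of upstream ATTAAA sites (interval 1.82 to 2.42%). On the upstream side of the same range members and terminal AATAAA sites both had 1.19%.

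**Figure D4:**
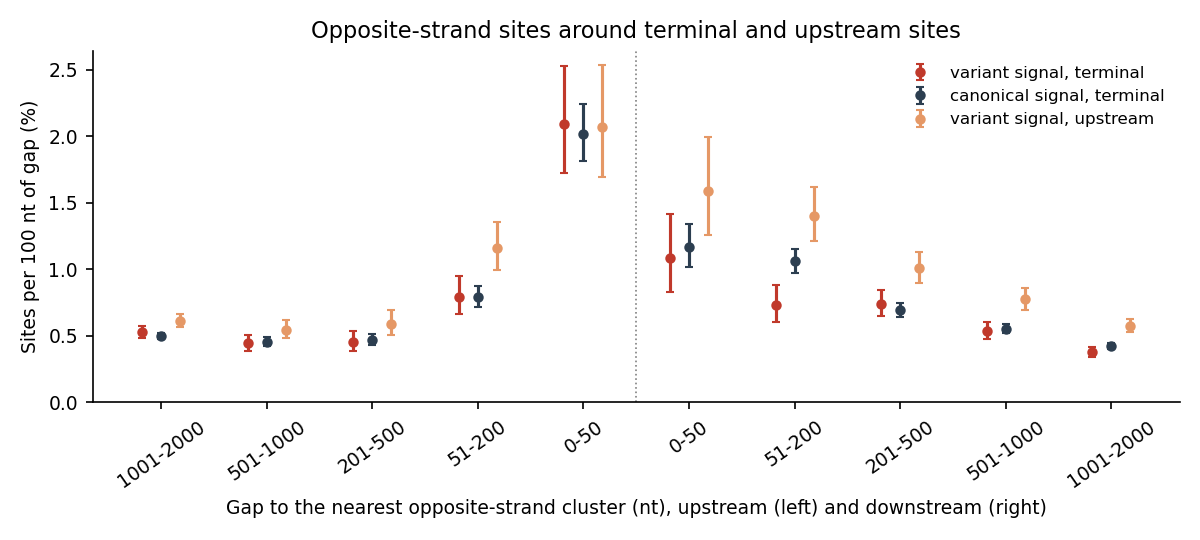
Share of sites (%) whose nearest opposite-strand cluster falls in each range of gaps in nt, divided by the length of the range in units of 100 nt, upstream (left) and downstream (right) of terminal variant, terminal canonical and upstream variant sites, with 95% Wilson intervals. Upstream variant sites lie highest over most of the ranges, and terminal variant sites lie below terminal canonical sites at 51 to 200 nt downstream.

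The balance between the 2 signals varied with the surroundings. Among terminal sites with either signal, the variant made up 20.7% (interval 19.9 to 21.5%) where at most 10 other clusters lay within 100 kb and 24.0% (interval 23.1 to 24.9%) where 51 to 190 did. Between these it was 21.9%, 23.2% and 24.2% in classes of rising density. Members had a median of 28 other clusters within 100 kb, against 26 for terminal AATAAA sites. On the log2 scale of 1 plus that number the difference over autosomes was 0.085 ± 0.084, positive on 17 of 19 (adjusted p = 0.000315 over the 7 added comparisons, permutation test).

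By chromosome the variant share of these terminal sites was 22.9% ± 1.04 (SD, n = 19 autosomes). It ran from 20.9% on chromosome 15 (interval 19.1 to 22.9%) to 24.4% on chromosome 13 (interval 22.5 to 26.4%), and the intervals of these 2 overlapped. Chromosome X, with 249 members and 1110 terminal AATAAA sites, had 18.3% (interval 16.4 to 20.5%), below the value of each of the 19 autosomes. The interval of X overlapped those of several autosomes, chromosome 15 among them. With 1 chromosome X its lower share was not tested.

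**Figure D5:**
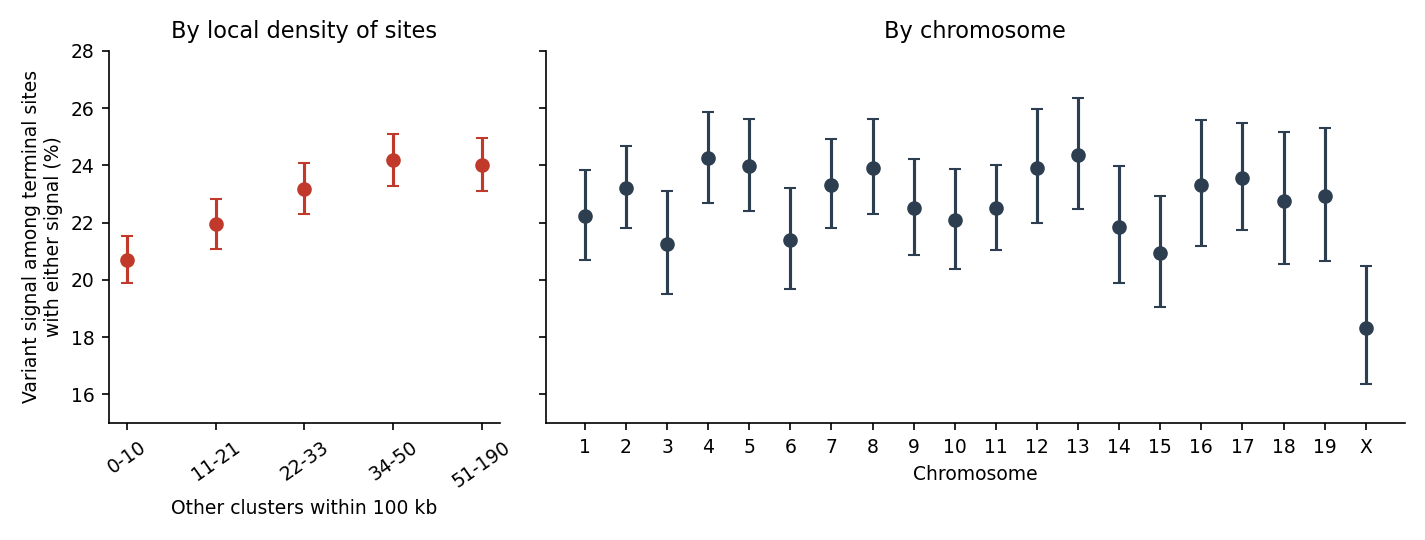
Share (%) of the variant signal among terminal sites with the variant or the canonical signal, with 95% Wilson intervals, by the number of other clusters within 100 kb (left) and by chromosome (right), on an axis that starts at 15%. The share rises from 20.7% in the sparsest class to 24.2% at 34 to 50 clusters, and chromosome X has the lowest value, 18.3%.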

How the data were processed

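The study had 12 libraries in 6 groups of 2, taken from the titles. Oligo-dT selected RNA was cut lightly with RNase T1, and circularised cDNA of selected size was amplified and read from the tail, per the labels' protocols. Per the submitters' processing notes, Trimmomatic, STAR and bedtools were used with build mm9. Clustering rules, hexamer search and any removal of internally primed ends are not given in the sources used here. The deposited values are positions, strands, hexamers and distances in nt, per the file headers. Depth is unknown.

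Starts were taken as counted from 0 (printed from 1) and widths as end minus start. Gaps ran edge to edge. Shares have 95% Wilson intervals, which cover counting error only. Differences were paired by autosome and tested with 100000 sign flips (seed 1). The code was checked on simulated data. The members, comparisons and settings were chosen with earlier results of these data known. Positions are named for the 3 widest, 3 longest-run and 3 most isolated members outside chromosome 18 and the unplaced sequences. Software was scipy 1.17.1, numpy 2.4.6, matplotlib 3.10.9 and pandas 2.3.3 under Python 3.11.15.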

Additional observations from a re-analysis of the deposited data

How the results depend on the processing

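The 13 comparisons were recomputed under up to 16 alternatives each, 182 values in all. Of these, 166 kept their direction and their side of the threshold, and 11 kept only the direction and no longer passed. Another 1 passed where it had not, and 4 turned. These counts include the comparisons given without p, for which passing the threshold is no test. The terminal share and the 2 mean distances have 14 values each, of which 14, 12 and 11 kept both. The upstream-site share against upstream ATTAAA sites has 14, and all kept both. The share of members with an opposite-strand site within 1 kb was compared with that of terminal AATAAA sites. This difference no longer passed at distances of 10 to 35 nt (-0.744 percentage points) or 18 to 25 nt (-0.353). It also no longer passed with terminal sites defined by 5000 nt (-0.323), on the plus strand (-0.227) or in sites up to 50 nt wide (-0.696). The same held with opposite-strand sites up to 5000 nt away (-0.441) and in sites with at least one upstream within 2000 nt (-0.696). The mean distance, a measure the rule bounds, was 0.163 nt for members less terminal AATAAA sites. It turned to -0.0759 nt at 18 to 25 nt and was 0.039 nt in sites with at least one upstream. Less that of upstream ATTAAA sites it was -0.112 nt ± 0.153 and moved towards 0 with terminal sites defined by 5000 nt (-0.0187), on the minus strand (-0.101) or in lone sites (-0.0536). The log2 gap to the nearest upstream site, which had not passed, turned with terminal sites defined by 1000 nt (-0.00031), on the minus strand (-0.00099) and with neighbours up to 5000 nt (-0.0090), and passed with neighbours up to 500 nt (0.15). The cause of these changes was not tested. The terminal share stayed between -12.6 and -9.64 percentage points, the log2 width against terminal AATAAA sites between -0.41 and -0.24, and the AATAAA share of upstream neighbours between -9.63 and -4.75 percentage points. Lone or run-ending sites alone, both cluster ends counted, and the removal of distances of 19 and 26 nt were alternatives chosen after seeing the data. A planned convention with ends not included was not run, since it is the one used when positions are counted from 0. No paired analysis was possible because the catalogue carries no column of a library.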
